A study of Macaca fascicularis with 15 samples.

Results

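The axon guidance ligands and receptors are the cell surface and secreted proteins by which growing axons and neighbouring cells read each other: ephrins and their Eph receptors, semaphorins with plexins and neuropilins, Slits with Robo receptors, and netrins with DCC and UNC5 receptors. The genes were chosen by symbol, with earlier results of these data known, and 57 of the 12995 genes in the tables carried a symbol of these families. One of them, UNC50, matched by spelling only: it encodes a Golgi membrane protein and no netrin receptor, which leaves 56 guidance genes, 28 ligands and 28 receptors. Retina and eye of wild-type cynomolgus monkeys (Macaca fascicularis) had been kept in RNALater, an RNA-preserving solution, and sequenced as RNA, with 1 eye behind each sample. The groups were central retina (n = 4 libraries), peripheral retina (n = 3), whole retina (n = 2) and whole eye (n = 2), with no treatment stated. Biological replicates are stated for eye and retina samples, but no label gives an animal, age, sex or date, or says whether central and peripheral pieces came from the same eyes. The p-values therefore rest on the spread among these libraries, part of which may be technical. Of the 15 sample records, 4 (2 whole retina, 2 whole eye) were not analysed here.

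Eph receptors are receptor tyrosine kinases that bind membrane-anchored ephrins on adjoining cells, and graded Eph and ephrin levels across the retina order the map of ganglion cell axons in chick and mouse. Semaphorins act through plexins, and the secreted class 3 members mostly need a neuropilin as co-receptor. Slits signal through Robo receptors to repel retinal axons and keep their bundles together, and netrin-1 at the mouse optic disc attracts ganglion cell axons through DCC, while UNC5 receptors turn the netrin response to repulsion. In adult tissue many of these genes stay on in neurons, glia and vessels.

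Each table gave 1 normalised signal value per gene, scaled by the authors in a way the sources used here do not state, so values were compared between libraries for 1 gene and not between genes. No guidance gene was at 0 in any library, and 54 of the 57 reached a mean of 1 in at least 1 group and were tested. DCC, NTN5 and SEMA3D stayed under that mean in every group. Of all genes, 171 to 501 per library were at 0. Read totals are unknown, and for that reason values carry no counting interval.

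Marker genes of other cell types differed between the tissue pieces. Summed over 9 ganglion cell markers, values were 2137 to 4082 in central retina and 416.9 to 732.8 in peripheral retina, and 8 of these 9 markers were called higher in central retina. Müller glia markers summed to 1764 to 2185 in central retina and 3196 to 3785 in peripheral retina, with 8 of 10 called lower in central retina. Pigment epithelium markers summed to 77.9 to 184.9 in central retina and 400.6 to 604.6 in peripheral retina, with 6 of 7 called lower in central retina. Of the other lists, rod markers had 4 of 8 called lower in central retina, astrocyte markers 2 of 3, fibrous stroma markers 3 of 7 and vascular markers 1 of 7, and bipolar cell markers had 1 of 5 called higher. No amacrine, lens, muscle or corneal and conjunctival marker was called between the regions by limma, with 1 amacrine marker higher and 1 lower at an unadjusted p under 0.05. The libraries labelled whole retina held markers from outside the neural retina: pigment epithelium markers summed to 2294 to 2464, close to the 2641 to 2667 of whole eye. Muscle markers summed to 1201 to 1400 in whole retina and 584.7 to 1239 in whole eye, and fibrous stroma markers to 418.8 to 469.6 in whole retina and 509.6 to 679.8 in whole eye. Lens markers summed to 378.7 to 545.6 in whole retina and 2998 to 3314 in whole eye, against 1.75 to 5.22 over all regional libraries, where CRYBA4, LIM2 or MIP was at 0 in some. In bulk tissue, fewer cells of a type and less RNA per cell cannot be told apart. The part of these cell type differences in the results that follow was not tested.

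**Figure D1:**
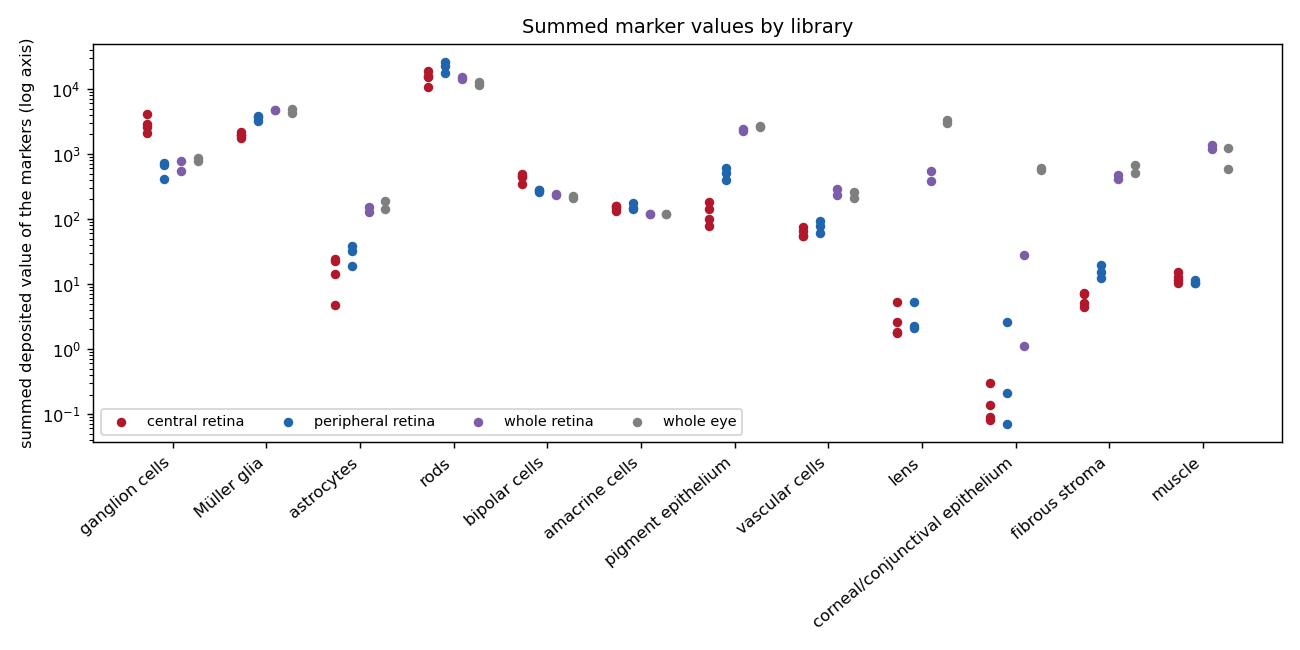
Summed values of marker genes for each cell type list (log axis) in each library, grouped as central retina, peripheral retina, whole retina and whole eye. Ganglion cell markers sit at 2137 to 4082 in central retina and 416.9 to 732.8 in peripheral retina, and pigment epithelium markers at 2294 to 2464 in whole retina.

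Central and peripheral retina were compared first, as the direct contrast of retinal position. In central retina 10 guidance genes were called higher and 6 lower of 54 tested (UNC50 included, which was not called), by limma at an adjusted p under 0.05. EPHA6 and PLXNA4, neuronal receptors, were among the higher genes, and PLXNB3, SEMA3B and EPHA2 among the lower. The 16 called genes made up 29.6% of the guidance genes, where 21.3% of all 11933 features tested were called, with 12.5% higher and 8.76% lower. The median difference over the guidance genes was 0.04 on the log2(value + 1) scale, against -0.01 over all features. Every central library lay above every peripheral library for 13 of 54 guidance genes (24.1%), against 19.0% of all features. Every central library lay below every peripheral library for 8 (14.8%), against 15.6% of all features. Differences are given on the log2(value + 1) scale, which understates the change of genes with low values, with the ratio of the untransformed means beside it. In fits that left out 1 library at a time, 7 of the 16 calls were kept in each: EFNA3, EPHA2, EPHA4, EPHA6, PLXNA4, PLXNB3 and SEMA3B. The number of higher genes ranged between 4, without peripheral library 3, and 11. It was 6 without central library 3, central library 4 or peripheral library 2. The number of lower genes ranged between 3, without central library 3 or peripheral library 2, and 6. The settings named below for single genes leave out a fit with library numbers as blocks, which is given at the end.

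**Figure D2:**
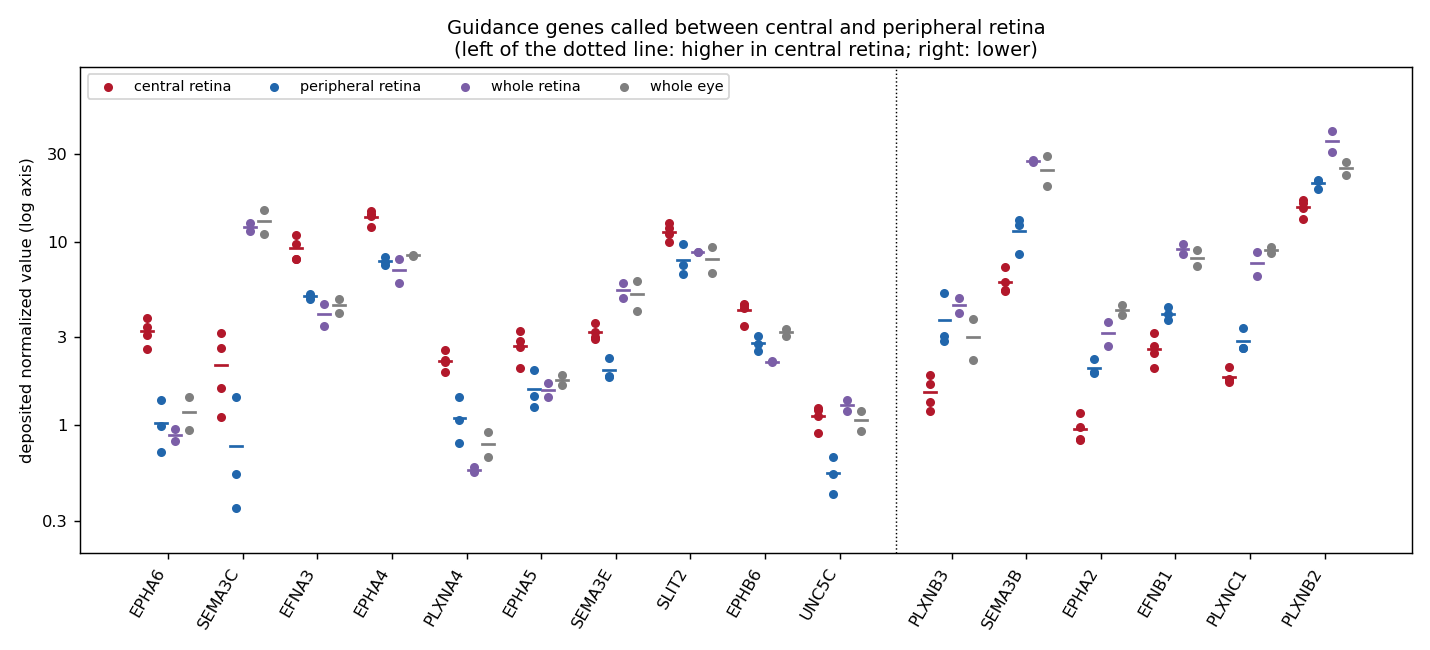
Values (log axis) of the 16 guidance genes called between central and peripheral retina, in each library of the 4 groups (points), with group means (bars). Genes left of the dotted line were called higher in central retina and those right of it lower. For EPHA6 the central libraries sit between 2.6 and 3.85 and the peripheral libraries between 0.71 and 1.37, and for PLXNB3 the central libraries all sit below the peripheral ones.

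Among the Eph receptors, 4 of 11 were higher in central retina and 1 was lower. The EphA class, whose ligands are the lipid-anchored ephrin-As, held 3 of the higher receptors and the lower one among its 7 members. EPHA6, an EphA receptor of nervous tissue, had the largest difference of the guidance genes tested. Its values were 2.6, 3.85, 3.09 and 3.42 in central retina, against 1.37, 0.98 and 0.71 in peripheral retina. The means were 3.24 ± 0.528 and 1.02 ± 0.332 (SD, n = 4 and 3), a ratio of 3.18 and a log2 difference of 1.07 ± 0.15 (SE, limma adjusted p = 0.000629). All central libraries were above all peripheral ones, and the peripheral values lay near those of whole retina (0.95 and 0.82) and whole eye (0.94 and 1.41).

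EPHA4, which binds ephrins of both classes, was at 14.07, 12.05, 13.8 and 14.7 in central retina and at 7.69, 8.27 and 7.48 in peripheral retina. The groups did not overlap, and the spread within each was small beside the gap between them. The log2 difference was 0.73 ± 0.12 (SE, limma adjusted p = 0.00137), with a ratio of means of 1.75. EPHA5, a receptor that is graded across the ganglion cell layer in mouse, was at 2.03, 3.23, 2.65 and 2.88 in central retina and at 1.99, 1.44 and 1.25 in peripheral retina. Its lowest central library stood just above its highest peripheral one. The log2 difference of EPHA5 was 0.53 ± 0.15 (SE, limma adjusted p = 0.0253). That call was lost without central library 2, 3 or 4 or peripheral library 2 or 3, with adjusted p between 0.0501 and 0.0971.

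EPHB6, a family member whose kinase domain is inactive, was at 4.57, 3.46, 4.34 and 4.5 in central retina and at 2.52, 3.07 and 2.75 in peripheral retina. The groups did not overlap, and the log2 difference was 0.46 ± 0.12 (SE, limma adjusted p = 0.0174). Without peripheral library 1 or 3 the adjusted p became 0.073 or 0.0536. EPHA2, best known from epithelia and vessels, ran the other way from the other called Eph receptors. It was at 1.16, 0.83, 0.84 and 0.97 in central retina and at 1.93, 1.92 and 2.28 in peripheral retina. No library of one region reached the range of the other. The ratio of means was 0.465, with a log2 difference of -0.64 ± 0.12 (SE, limma adjusted p = 0.00395).

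The remaining Eph receptors were not called between the regions. EPHA3, graded along the nasal to temporal axis in the chick retina, was at 9.81, 6.74, 7.38 and 7.36 in central retina and 9.85, 12.46 and 8.64 in peripheral retina. The 2 ranges overlapped and the log2 difference was -0.36, with a 95% interval between -0.69 and -0.02 (limma adjusted p = 0.118). EPHB1, which directs ipsilateral ganglion cell axons at the mouse optic chiasm, was at 0.9, 1.29, 1.38 and 1.13 in central retina and 1.06, 0.66 and 1.05 in peripheral retina. EPHB3, which helps to steer ganglion cell axons to the optic disc in mouse, was at 0.88, 0.8, 0.85 and 1.18 in central retina and 1.34, 1.03 and 1.32 in peripheral retina. Both of these EphB receptors overlapped between regions, with log2 differences of 0.18 (95% interval -0.19 to 0.55) for EPHB1 and -0.21 (95% interval -0.50 to 0.07) for EPHB3. For EPHA8 every central library was above every peripheral one, at means of 2.99 ± 0.469 and 2.35 ± 0.0781 (SD, n = 4 and 3), without a call (limma adjusted p = 0.161). EPHA1 and EPHB4 overlapped between regions and were not called. EPHA7 and EPHB2 were not analysed here.

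The ephrins split by gene, with 1 of 4 higher and 1 of 4 lower in central retina. EFNA3, a lipid-anchored ligand of EphA receptors, was at 8.03, 8.07, 9.67 and 10.89 in central retina, against 5.03, 4.83 and 5.2 in peripheral retina. The peripheral libraries were tightly grouped and all central ones lay above them. The ratio of means was 1.83 and the log2 difference 0.75 ± 0.13 (SE, limma adjusted p = 0.00276). EFNB1, a transmembrane ligand of EphB receptors, had values of 3.17, 2.04, 2.46 and 2.69 in central retina and 3.71, 4.38 and 4.02 in peripheral retina. All central libraries were below all peripheral ones, with a ratio of means of 0.642 and a log2 difference of -0.50 ± 0.13 (SE, limma adjusted p = 0.0232). The EFNB1 call was lost without central library 3 (0.0596), peripheral library 2 (0.102) or peripheral library 3 (0.0615), and under quantile normalization (0.0517). EFNA5, which repels temporal retinal axons in the mouse target, was at 2.41, 3.24, 2.93 and 2.43 in central retina and 3.59, 2.69 and 2.81 in peripheral retina. Its regions overlapped, with a log2 difference of -0.10 and a 95% interval between -0.47 and 0.26. EFNB3 also overlapped. EFNA2 and EFNB2 were not analysed here.

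Of the secreted class 3 semaphorins, 5 of 6 were tested, and 2 were higher and 1 lower in central retina. SEMA3E, which signals through plexin D1 and restrains vessel growth in the mouse retina, was at 3.2, 3, 2.95 and 3.61 in central retina and at 2.32, 1.84 and 1.83 in peripheral retina. The groups did not overlap, with a ratio of means of 1.60 and a log2 difference of 0.49 ± 0.14 (SE, limma adjusted p = 0.0289). The call was lost without central library 1, 3 or 4 or peripheral library 2 or 3 (adjusted p between 0.0517 and 0.113), and with a pseudocount of 5 (0.0544). SEMA3C, a ligand for neuropilins, was at 3.15, 1.58, 1.11 and 2.61 in central retina and at 0.54, 1.42 and 0.35 in peripheral retina. Here central library 3 lay below peripheral library 2, so the groups overlapped. The ratio of means was 2.74 and the log2 difference 0.81 ± 0.26 (SE, limma adjusted p = 0.0453). The SEMA3C call was lost without central library 1 or 4, peripheral library 1 or 3, or any 1 of the whole retina and whole eye libraries (adjusted p between 0.0523 and 0.142). It was also lost with a pseudocount of 5 (0.0984), with no filter on low values (0.0678) and in a fit of the 2 regions alone (0.0621).

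SEMA3B, a ligand of neuropilins first studied as a tumour suppressor gene, fell in central retina. Its values were 6, 5.44, 5.39 and 7.24 there, against 8.57, 12.38 and 13.13 in peripheral retina. The groups did not overlap, and the peripheral libraries were the more spread. The ratio of means was 0.530 and the log2 difference -0.80 ± 0.17 (SE, limma adjusted p = 0.00742). SEMA3F, a neuropilin-2 ligand, was at 41.6 ± 5.53 in central retina and 36.4 ± 0.609 in peripheral retina (SD, n = 4 and 3) with overlapping libraries. SEMA3G, which is made by arteries in mouse, had 1.48 ± 0.277 in central and 0.877 ± 0.20 in peripheral retina without overlap, at a limma adjusted p of 0.0679. SEMA3G passed the threshold in a fit without whole retina library 1 (0.045) or whole retina library 2 (0.0453), in a fit of the 2 regions alone (0.0367) and under quantile normalization (0.0272). SEMA3A was not analysed here.

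No call was made between the regions for any of the 11 membrane-bound semaphorins, the class 4 to 7 ligands of plexins. At an unadjusted limma p under 0.05, SEMA6D was higher and SEMA5A lower in central retina. SEMA6D, a plexin A1 ligand, was at 8.85 ± 1.31 in central and 6.88 ± 1.15 in peripheral retina (SD, n = 4 and 3), with a log2 difference of 0.32 and a 95% interval between 0.02 and 0.62. SEMA5A, which keeps neurites out of the outer retina in mouse together with SEMA5B, was at 6.51 ± 0.802 in central and 8.69 ± 1.25 in peripheral retina. Every central library of SEMA5A was below every peripheral one. SEMA7A, the lipid-anchored ligand of plexin C1, was close between regions, at 25.9 ± 3.70 in central and 26.5 ± 4.03 in peripheral retina, with a 95% interval for the log2 difference between -0.44 and 0.37.

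Of the plexins, the receptors of these ligands, 1 of 8 was higher and 3 were lower in central retina. PLXNA4, a co-receptor for class 3 semaphorins in sensory and retinal neurons, was at 2.56, 1.93, 2.2 and 2.27 in central retina and at 1.41, 1.06 and 0.8 in peripheral retina. The groups did not overlap, with means of 2.24 ± 0.259 and 1.09 ± 0.306 (SD, n = 4 and 3). The log2 difference of PLXNA4 was 0.64 ± 0.13 (SE, limma adjusted p = 0.00557). The other plexin A genes, PLXNA1, PLXNA2 and PLXNA3, overlapped between regions, with log2 differences between 0.07 and 0.25.

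The plexin B genes, whose products bind class 4 semaphorins or SEMA5A, all had lower means in central retina. PLXNB3, a gene of the oligodendrocyte lineage in mouse brain, was at 1.19, 1.33, 1.67 and 1.86 in central retina and at 2.87, 3.07 and 5.24 in peripheral retina. All central values lay below the peripheral ones, with a ratio of means of 0.406 and a log2 difference of -0.89 ± 0.20 (SE, limma adjusted p = 0.0091). PLXNB2 was at 16.91, 13.32, 16.15 and 15.19 in central retina and at 21.35, 19.37 and 21.62 in peripheral retina. Its groups did not overlap, although the ratio of means was 0.741 and the log2 difference only -0.41 ± 0.12 (SE, limma adjusted p = 0.0351). That call was lost without central library 2, 3 or 4 or any 1 peripheral library (adjusted p between 0.0611 and 0.107), and under median ratio scaling (0.0553). PLXNB1 had means of 11.2 ± 1.19 in central and 14.8 ± 2.71 in peripheral retina without overlap and was not called (limma adjusted p = 0.111). PLXNC1, the SEMA7A receptor, was at 2.06, 1.71, 1.77 and 1.76 in central retina and at 2.63, 3.37 and 2.61 in peripheral retina. Its regions did not overlap, with a log2 difference of -0.45 ± 0.13 (SE, limma adjusted p = 0.0287). The PLXNC1 call was lost without central library 3 or 4 or peripheral library 1 or 2 (adjusted p between 0.0544 and 0.14), and with a pseudocount of 5 (0.0698). PLXND1 was not analysed here.

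The neuropilins, which bind class 3 semaphorins as co-receptors of plexins and also bind vascular endothelial growth factors, did not pass the threshold between regions. NRP1 was at 1.04, 1.05, 0.82 and 0.94 in central retina and 1.6, 0.92 and 1.17 in peripheral retina, with a log2 difference of -0.17 (95% interval -0.46 to 0.11). NRP2 was at 1.17, 0.47, 0.61 and 1.03 in central retina and 0.97, 0.95 and 1.03 in peripheral retina. For NRP2 the central libraries spread on either side of the peripheral ones, and the log2 difference was -0.14 (95% interval -0.56 to 0.28).

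In the Slit and Robo pair, SLIT2 was the called gene. SLIT2, a secreted repellent found in the ganglion cell layer in mouse, was at 9.95, 10.96, 12.58 and 11.81 in central retina and at 9.68, 7.44 and 6.67 in peripheral retina. The groups touched but did not overlap: the lowest central library stood just above the highest peripheral one. The ratio of means was 1.43 and the log2 difference 0.47 ± 0.15 (SE, limma adjusted p = 0.0418). The SLIT2 call was lost without central library 2, 3 or 4 or peripheral library 2 or 3 (adjusted p between 0.0538 and 0.143), and with no filter on low values (0.0521). SLIT1 was at 2.98, 1.1, 1.87 and 2.06 in central retina and 1.84, 3.18 and 2.4 in peripheral retina, with wide overlap and a 95% interval for its log2 difference between -0.68 and 0.22.

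None of the 3 Robo receptors was called, and 1 of them, ROBO4, had an unadjusted limma p under 0.05. ROBO1, the main Slit receptor analysed here, was at 1.6, 1.74, 1.47 and 1.41 in central retina and 2.11, 2.36 and 1.72 in peripheral retina. A single central library exceeded the lowest peripheral one, and the log2 difference was -0.26 (95% interval -0.53 to 0.01). ROBO4, the endothelial member of the family, was at 2.96, 1.98, 2.97 and 3.2 in central retina and 1.49, 1.56 and 1.8 in peripheral retina, without overlap. Its log2 difference was 0.52 ± 0.17 (SE, limma adjusted p = 0.0526). ROBO4 passed the threshold without central library 2 (0.0228), whole retina library 1 (0.02) or whole retina library 2 (0.0202). It also passed with a pseudocount of 0.1 (0.048), under quantile normalization (0.0483), with no variance trend (0.0494) and in a fit of the 2 regions alone (0.0254). Vascular markers summed to 54.96 to 74.89 in central retina and between 61.26 and 94.69 in peripheral retina. Of the 7 markers, 4 had positive and 3 negative log2 differences. The 1 called, KDR, was lower in central retina, at a mean of 30.94 against 45.66 in peripheral retina. The part of these markers in the ROBO4 values was not tested. ROBO2 was not analysed here.

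No netrin was called between regions, and 1 of the 4 tested, NTN3, had an unadjusted limma p under 0.05. NTN1, the classical secreted netrin, was at 0.59, 0.25, 0.59 and 0.66 in central retina and 0.28, 0.58 and 0.47 in peripheral retina. NTN4, a basement membrane netrin, was at 0.85, 3.54, 0.99 and 1.4 in central retina and 1.89, 1.24 and 1.41 in peripheral retina. Both overlapped widely, and central library 2 held the lowest NTN1 value and the highest NTN4 value of the regional libraries. NTNG2, a lipid-anchored netrin-G that acts at synapses through LRRC4, was at 140.0 ± 15.2 in central retina and 152.8 ± 4.78 in peripheral retina (SD, n = 4 and 3). Its 95% interval for the log2 difference ran between -0.39 and 0.13.

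Of the netrin receptors, UNC5C was higher in central retina. UNC5C, a repulsive netrin receptor, was at 1.2, 0.9, 1.23 and 1.12 in central retina and at 0.67, 0.54 and 0.42 in peripheral retina. No library of the 2 regions overlapped, with a ratio of means of 2.05 and a log2 difference of 0.45 ± 0.11 (SE, limma adjusted p = 0.0177). The call was lost without central library 3 (0.053), peripheral library 2 (0.0671) or peripheral library 3 (0.0728). UNC5D was at 4.99, 4.81, 4.79 and 4.21 in central retina and 4.54, 4.55 and 3.82 in peripheral retina, which overlapped, with a 95% interval for the log2 difference between -0.20 and 0.41. UNC5B overlapped as well. DCC, the attractive netrin receptor, was at 1, 1.05, 0.93 and 0.9 in central retina and 1.47, 0.71 and 0.73 in peripheral retina. DCC means were 0.970 in both regions, and the gene was not tested.

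**Figure D3:**
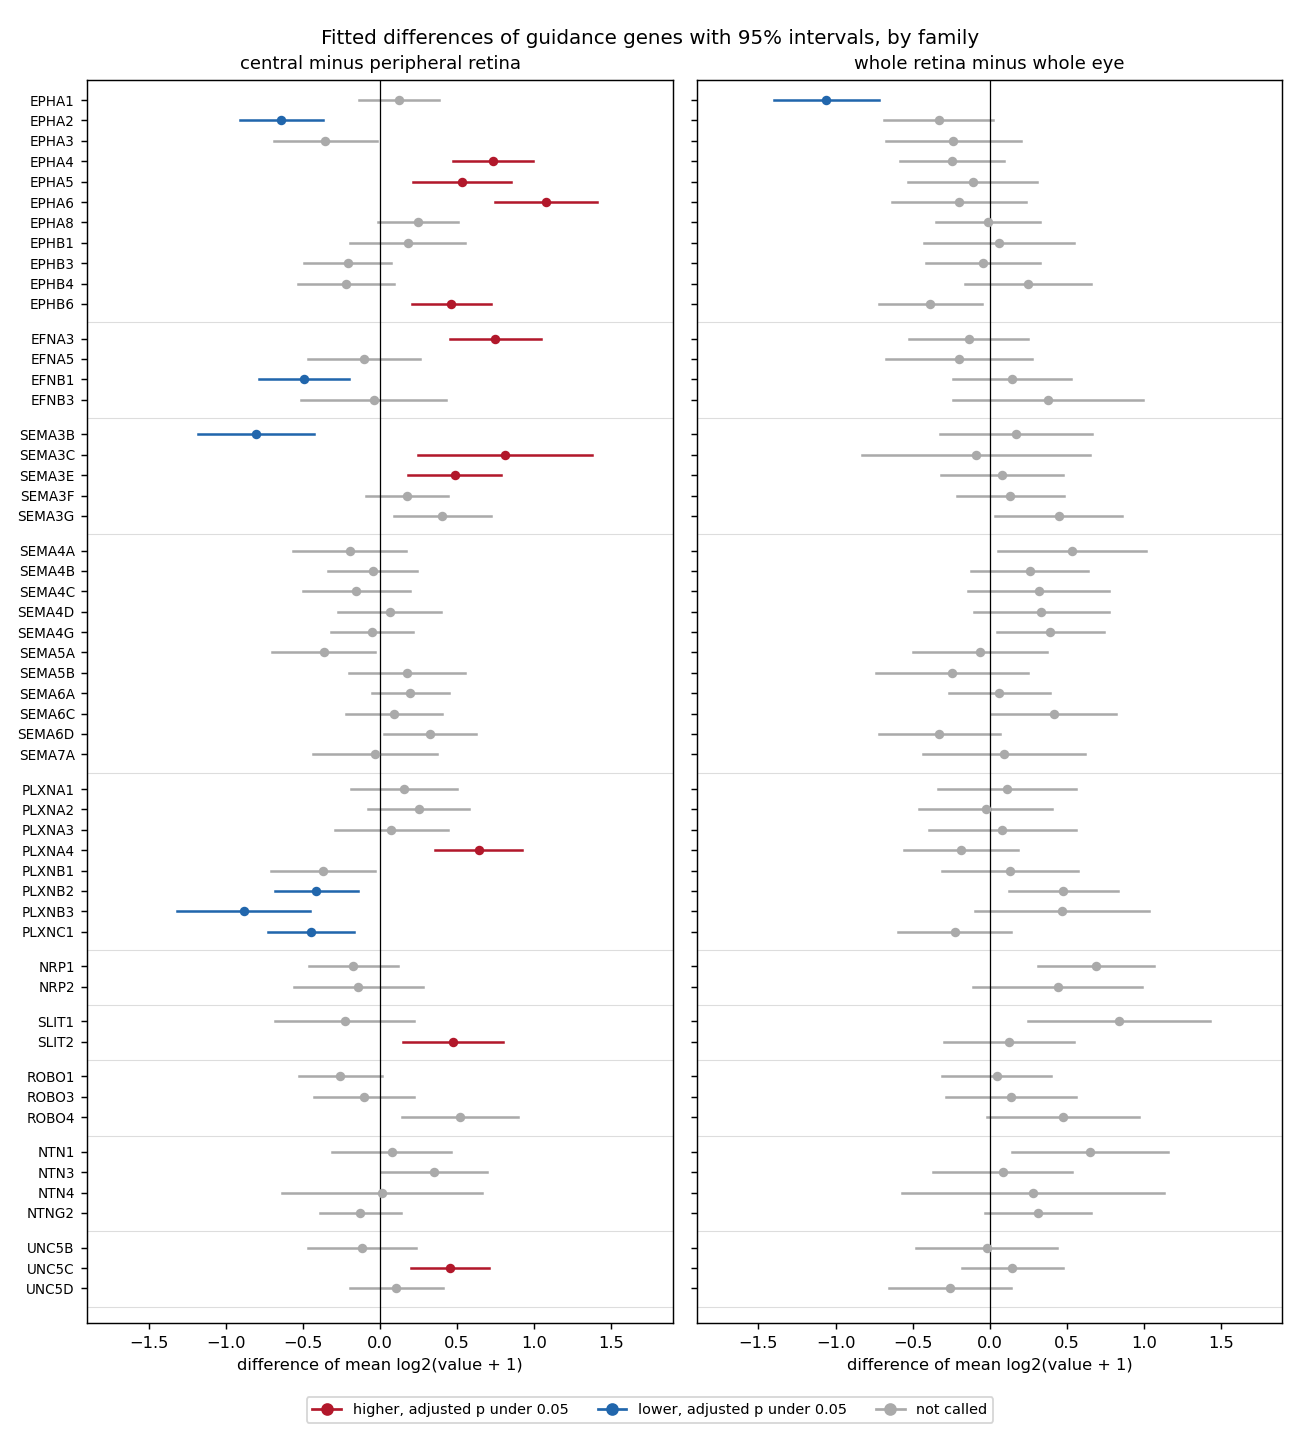
Fitted differences on the log2(value + 1) scale with 95% intervals for the tested guidance genes other than UNC50, by family, left for central minus peripheral retina and right for whole retina minus whole eye. Red marks genes called higher, blue genes called lower and grey genes not called. EPHA6 has the highest point on the left, at 1.07, and EPHA1 is the called gene on the right, at -1.06.

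The genes that act with these ligands and receptors were read from the same fit. The list, which held co-receptors, adhesion partners, downstream signalling proteins and regulators of retinal topography, had 72 tested genes. In central retina 20 of them were higher and 14 lower by limma, which is 47.2% called beside 21.3% of all features, with a median log2 difference of 0.10 beside -0.01 over all features. The list was written with earlier results of these data known, so its share and those of its parts are not independent of them. Among the signalling proteins below semaphorins and plexins, 9 of 17 were higher and none was lower, with a median of 0.43. At an unadjusted p under 0.05, 10 were higher and 0 lower. Among adhesion partners and co-receptors 7 of 23 were higher and 4 lower, among Slit, Robo and netrin signalling genes 4 of 10 were higher and 1 lower, and among ephrin and Eph signalling genes 2 of 12 were lower. None of those 12 was called higher, with 1 higher at an unadjusted p under 0.05. Of the regulators of topography 7 of 10 were lower and none was higher, also at unadjusted p under 0.05, with a median of -0.82. KDR, among the lower adhesion partners and co-receptors, also served as a vascular marker, and ISL2, an uncalled topography regulator, as a ganglion cell marker. In fits without 1 library, the count of higher genes ranged between 13, without peripheral library 2, and 21. That of lower genes ranged between 7, without peripheral library 2, and 14, with 8 without central library 3 and 9 without peripheral library 1 or 3, and 19 of the 34 calls were kept in each of these fits.

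MICAL2, an actin-oxidising enzyme of the family that acts below plexins, was at 31.9 ± 4.19 in central retina and 7.67 ± 1.20 in peripheral retina (SD, n = 4 and 3), a log2 difference of 1.93 ± 0.14 (SE, limma adjusted p = 2.66e-05). The adhesion protein L1CAM, a co-receptor of neuropilin-1 on axons, was at 45.7 ± 6.52 in central and 13.8 ± 2.73 in peripheral retina, a log2 difference of 1.67. DSCAM, which spaces retinal neurons in mouse and can bind netrin-1, was at 7.80 ± 0.405 in central and 2.83 ± 0.408 in peripheral retina, a log2 difference of 1.20. In all of these the lowest central library was well above the highest peripheral one. The collapsin response mediators DPYSL2 and CRMP1, cytosolic proteins of semaphorin signalling, had log2 differences of 1.04 and 0.85. Ganglion cell markers moved with these genes, as described above, and their part was not tested.

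Of the lower genes, ALDH1A1 and ALDH1A3, which make retinoic acid, had log2 differences of -1.63 and -1.75 between central and peripheral retina. ALDH1A3 was at 3.15, 4.38, 2.25 and 2.01 in central retina and at 10.06, 11.33 and 14.73 in peripheral retina. ZIC2, a transcription factor that selects ipsilateral ganglion cell axons in mouse, was at 1.61, 1.21, 1.11 and 0.72 in central retina and at 3.18, 5.7 and 5 in peripheral retina. For these genes the regions did not overlap. BMP4, a dorsal signal of the developing retina, had a log2 difference of -1.23, and its receptor gene BMPR1B one of -1.03. Whole retina means stood above both regional means for ALDH1A1 (134.4), ALDH1A3 (69.49), BMP4 (53.07) and ZIC2 (7.925). The regional means were 1.555 and 6.917 for ALDH1A1 and 2.62 and 7.3 for BMP4, central first. For BMPR1B the whole retina mean (4.33) lay between the regional ones. The 10 genes named here were called in every fit that left out 1 library. Sums of pigment epithelium, Müller glia and fibrous stroma markers were also lower in central than in peripheral retina. Their part in the lower genes was not tested.

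Whole retina was compared with whole eye. By the marker sums, lens and corneal markers were far lower in whole retina, while pigment epithelium, stroma and muscle markers were present in both. In whole retina no guidance gene was called higher and 1 of 54 (1.85%), EPHA1, was called lower by limma, where 2.27% of all features were called, 0.168% higher and 2.1% lower. At an unadjusted p under 0.05, 8 guidance genes were higher and 2 lower. Without whole retina library 2, the calls higher were 2 (NRP1 and SEMA4A), and without whole eye library 1 they were 1 (NTN1). The median log2 difference was 0.09 beside -0.01 over all features. Both whole retina libraries lay above both whole eye libraries for 14 of 54 guidance genes (25.9%), against 14.0% of all features. They lay below for 8 (14.8%), against 17.6% of all features.

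EPHA1, an Eph receptor best known from epithelia, was at 0.68 and 0.76 in whole retina, against 2.73 and 2.44 in whole eye. The libraries of each group were close together and the groups far apart. The ratio of means was 0.279 and the log2 difference -1.06 ± 0.15 (SE, limma adjusted p = 0.00222). Leaving out any 1 library kept the call, with adjusted p up to 0.0115, but it was lost with a pseudocount of 0.1 (0.0543) and in a fit of the 2 groups alone (0.0674). Corneal and conjunctival epithelium markers summed to 1.1 to 28.4 in whole retina and 565.9 to 611.8 in whole eye. Lens markers summed to 378.7 to 545.6 in whole retina and 2998 to 3314 in whole eye. The part of either list in the EPHA1 result was not tested. In the regional libraries EPHA1 was lower still, between 0.17 and 0.52.

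Both neuropilins and all 4 tested netrins had positive log2 differences, and none was called. NRP1 was at 12.78 and 10.34 in whole retina and 6.97 and 6.54 in whole eye, a log2 difference of 0.69 ± 0.17 (SE, limma adjusted p = 0.0792). Its groups did not overlap, and it passed the threshold with a pseudocount of 5 (0.00769), under quantile normalization (0.0253) and without whole retina library 2 (0.0291). NTN1 was at 8.94 and 10.71 in whole retina and 7.73 and 4.41 in whole eye, a log2 difference of 0.65 ± 0.23 (SE, limma adjusted p = 0.312). NTN1 passed only in the fit without whole eye library 1 (0.0464). SLIT1 was at 3.78 and 4.77 in whole retina and 1.87 and 2.01 in whole eye, a log2 difference of 0.84 ± 0.27 (SE, limma adjusted p = 0.229). All 3 of these genes kept whole retina above whole eye in every library. SEMA4A, a class 4 semaphorin linked to inherited retinal degeneration in people, was at 20.27 and 12.14 in whole retina and 11.27 and 9.86 in whole eye. SEMA4A was not called (limma adjusted p = 0.398), except in the fit without whole retina library 2 (0.0272). Vascular and most muscle markers also had positive differences in whole retina. All 7 vascular markers did, with a median log2 difference of 0.41. None of the 7 was called by limma, and 3 were higher at an unadjusted p under 0.05: VWF (0.98), CDH5 (0.54) and PDGFRB (0.46). Their sums were 235.2 to 285.4 in whole retina and 213.3 to 259.6 in whole eye. Of 4 muscle markers, MYH11 (0.85) and DES (0.69) were higher at an unadjusted p under 0.05, and ACTA1 was called lower. The part of these markers in the NRP1, NTN1, SLIT1 and SEMA4A values was not tested.

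No other ligand or receptor was called between whole retina and whole eye. EFNB1 was at 9.69 and 8.53 in whole retina and 9.03 and 7.31 in whole eye, and EFNA5 at 3.41 and 5.14 in whole retina and 4.08 and 6.01 in whole eye. SEMA3E was at 4.95 and 5.93 in whole retina and 6.11 and 4.18 in whole eye, and NTN4 at 11.98 and 21.91 in whole retina and 14.34 and 12.12 in whole eye. These 4 ligands overlapped between the groups. EPHA4 was at 8.04 and 5.97 in whole retina and 8.44 and 8.36 in whole eye, and ROBO1 at 3.34 and 3.05 in whole retina and 2.65 and 3.52 in whole eye. EPHB6 was at 2.22 and 2.21 in whole retina and 3.34 and 3.06 in whole eye, below it in each library and not called (limma adjusted p = 0.384). Of the pathway list, ALDH1A1 was lower in whole retina, at 109.53 and 159.2 against 264.54 and 275.42 in whole eye (log2 difference -1.03, limma adjusted p = 0.0218). That call was lost without whole retina library 1 (0.185), whole eye library 1 (0.0911) or whole eye library 2 (0.136). It was also lost with a pseudocount of 0.1 (0.0635), under quantile normalization (0.0643) and in a fit of the 2 groups alone (0.149).

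The regional libraries were set beside whole retina as levels only. The labels do not say whether these libraries were prepared together, so tissue and preparation cannot be told apart, and no test was made. Of 54 guidance genes, 20 (37.0%) had every regional library below both whole retina libraries, against 27.9% of all features. In 15 (27.8%) every regional library was above both whole retina libraries, against 13.9% of all features. Set beside whole retina and whole eye together, 17 (31.5%) were below and 9 (16.7%) above, against 24.7% and 10.2% of all features.

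The genes furthest below whole retina included 2 netrins and both neuropilins. NTN1 averaged 0.522 in central and 0.443 in peripheral retina, against 9.82 in whole retina, which is 0.0532 and 0.0451 of the whole retina mean. NRP1 averaged 0.963 in central and 1.23 in peripheral retina, against 11.6 in whole retina, and NRP2 0.820 and 0.983 in the same regions, against 11.0. NTN4 averaged 1.70 in central and 1.51 in peripheral retina, against 16.9 in whole retina. For these 4 genes the highest regional library was below the lowest whole retina and whole eye library. SEMA3C averaged 2.11 in central and 0.770 in peripheral retina, against 12.02 in whole retina, so its central level, although above the peripheral one, was 0.176 of that mean. EPHB4, the vein receptor for ephrin-B2, averaged 0.843 in central and 1.16 in peripheral retina, against 4.90 in whole retina. EPHB3 was also below, at 0.251 and 0.333 of the whole retina mean in central and peripheral retina. Sums of fibrous stroma, muscle, pigment epithelium and vascular markers stood lower in the regional libraries too. Stroma markers summed to between 4.44 and 7.16 in central and between 12.4 and 19.5 in peripheral retina, with KERA and OGN at 0 in some libraries, against 418.8 to 469.6 in whole retina. Not every marker followed its sum. The muscle marker ACTA1 averaged 2.82 in central and 2.07 in peripheral retina, against 0.555 in whole retina. The vascular marker KDR averaged 30.94 in central and 45.66 in peripheral retina, against 37.36 in whole retina. Among Müller glia markers, CRABP1 had higher means in both regions than in whole retina. WIF1, SLC1A3, DKK3 and AQP4 had higher means in peripheral retina only. The part of all these markers in these levels was not tested.

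Another set stood above whole retina in the regional pieces. NTNG2 was at 162.07, 137.16, 132.77 and 127.99 in central retina and 155.08, 155.93 and 147.26 in peripheral retina, against 53.93 and 46 in whole retina and 44.67 and 35.66 in whole eye. All regional libraries lay above all whole tissue ones. NTN3 and EPHA8 did so too, with central means 5.44 and 4.71 times and peripheral means 3.80 and 3.70 times the whole retina mean. PLXNA4 averaged 3.93 times the whole retina mean in central retina and 1.91 times in peripheral retina. EPHA3 was at 4.45 and 5.54 in whole retina, below each of its regional libraries. Sums of retinal interneuron markers stood higher in the regional libraries too. Bipolar cell markers summed to between 347.9 and 499.5 in central retina and between 261.8 and 277.4 in peripheral retina, against 232.8 to 240.4 in whole retina. Amacrine cell markers summed to between 132.9 and 160.9 in central retina and between 145.0 and 175.5 in peripheral retina, against 121.3 to 121.6 in whole retina. Not every marker followed its sum. The bipolar marker TRPM1 averaged 15.57 in central and 18.18 in peripheral retina, against 20.44 in whole retina. The amacrine marker SLC6A9 averaged 41.9 and 49.11 in these regions, against 55.48 in whole retina. PCP2 was below whole retina in peripheral retina only, at a mean of 109.6 against 119.3. The other bipolar and amacrine markers had higher means in both regions than in whole retina. Ganglion cell markers, at 552.3 to 790.8 in whole retina, were higher in central retina and overlapped with peripheral retina. The part of these markers in the levels was not tested.

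Of the 10 genes called higher in central than in peripheral retina, EFNA3, EPHB6 and PLXNA4 had every regional library above whole retina, and SEMA3C and SEMA3E every regional library below it. The other 5, EPHA4, EPHA5, EPHA6, SLIT2 and UNC5C, overlapped with whole retina. Of the 6 called lower in central retina, 5 had every regional library below whole retina, and PLXNB3, with 1 peripheral library at 5.24, overlapped. In each of these 6 genes the central mean was the lowest, the peripheral mean stood above it and the whole retina mean above both. For PLXNB3 the neighbouring means were 3.73 ± 1.31 in peripheral retina and 4.50 ± 0.601 in whole retina (SD, n = 3 and 2), and the whole retina libraries lay inside the range of the peripheral ones.

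**Figure D4:**
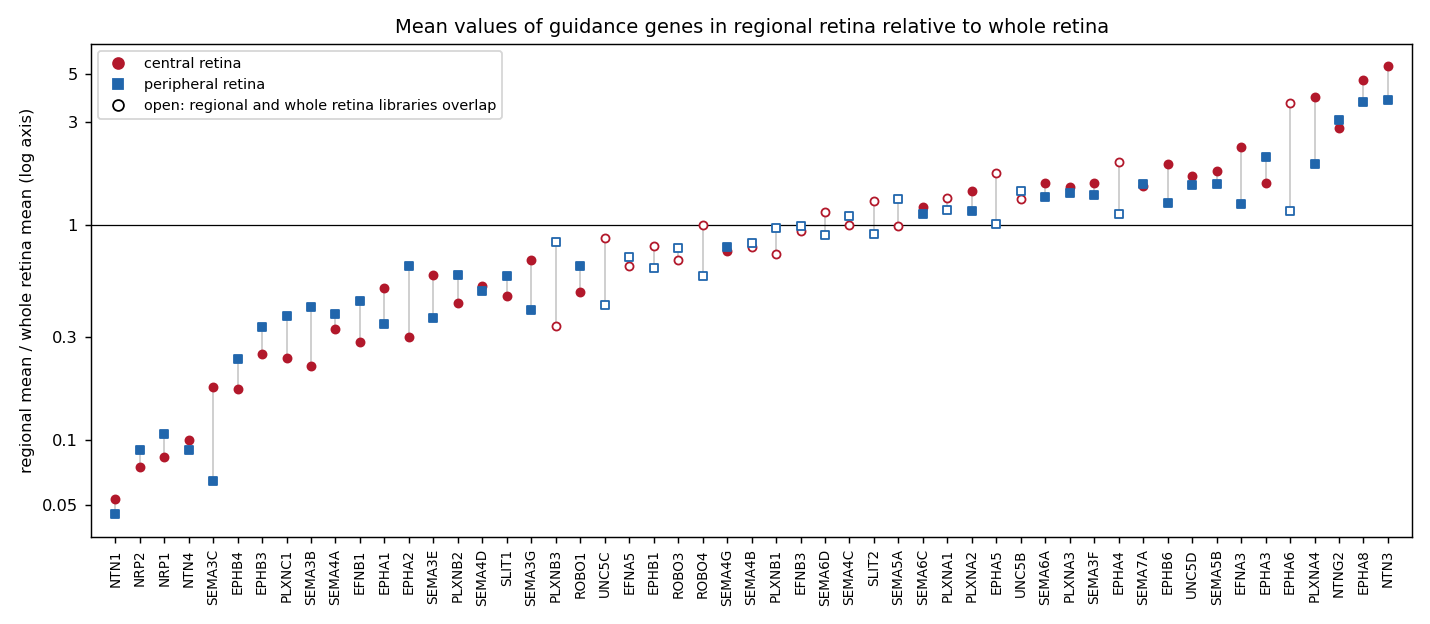
Mean value in central retina and in peripheral retina divided by the mean in whole retina for each tested guidance gene other than UNC50 (log axis). Genes are ordered by the product of the central and peripheral ratios. Open symbols mark genes whose regional and whole retina libraries overlap. NTN1 lies furthest below the line of equal means in both regions, at 0.0532 and 0.0451, and NTN3 furthest above it, at 5.44 and 3.80.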

How the data were processed

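RNA from wild-type cynomolgus monkey eye tissue was measured in 11 libraries, grouped by the tissue in the labels. The tables hold 1 normalized signal value per gene, deposited by the authors, with a normalization that no header or label states. GSNAP and HTSeq are named in the submitters' processing notes without version, while the genome build is not given in the sources used here, and neither coordinates nor sequences are printed. Each table had 13083 entries, of which 27 marked ND or blank and 61 exact duplicates were dropped. The 57 members were found by symbol, and all 57 symbols are listed in RefSeq's annotation of the species.

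limma 3.58.1 (R 4.3.3) was fitted to log2(value + 1), a pseudocount of 1, with a variance trend, over all 11 libraries in 4 groups sharing 1 variance per gene. Features whose mean reached 1 in any group were tested, 11933 in all, two-sided, with Benjamini and Hochberg adjustment over all of them in each comparison and a threshold of 0.05. The script was tested on simulated data. Tables were handled with Python 3.11.15, pandas 2.3.3 and matplotlib 3.10.9.

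Values per library are given for members called between regions (up to 12 in each direction) or between whole tissues (up to 10), where the higher group averaged 2 or more, and for a set of 27 genes of retinal wiring, of which 20 are in the tables. Of the pathway list, up to 5 in each direction with the smallest p are named. Other members, such as EPHA8, ROBO4, SEMA4A and NTNG2, were named after their values were seen. The members and lists were chosen with earlier results of these data known. Alternatives were other pseudocounts, filters, scalings, sample subsets, a replicate block, no variance trend and the omission of each library in turn. Leaving out UNC50 was added after seeing the data.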

Additional observations from a re-analysis of the deposited data

Results flagged for a closer look

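NTN1 in central retina had 1 library apart from the others: replicate 2 was at 0.25, beside 0.59, 0.59 and 0.66 in replicates 1, 3 and 4. Dixon's gap test at the 95% level picked it out of 29 gene values examined in the central group, the one group with enough libraries for the test. Chance picks out about 1 in 20 such sets of values. The same library held the highest NTN4 value of the regional libraries, 3.54, which the test did not pick out.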

How the results depend on the processing

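Between central and peripheral retina the 10 higher guidance genes became 5 when a group mean of at least 5 was required, which leaves fewer genes tested, and ranged between 4 and 11 with 1 library left out. The 6 lower genes ranged between 3 and 6. Between whole retina and whole eye the count of higher genes became 1 with a pseudocount of 5 and 1 under quantile normalization, and ranged between 0 and 2 with 1 library left out. The 1 lower gene, EPHA1, became 0 with a pseudocount of 0.1, with a group mean of at least 5 and in a fit of the 2 groups alone, and stayed at 1 with any library left out. Of the pathway list, the 20 higher and 14 lower genes in central retina ranged between 13 and 21 and between 7 and 14 with 1 library left out, and in whole retina between 0 and 1 in both directions. The 1 lower gene in whole retina became 0 with a pseudocount of 0.1, under quantile normalization and in a fit of the 2 groups alone. The causes were not tested. No called difference turned its direction under these alternatives, and the median over all features moved by less than 0.1 (log2) under each scaling. Leaving out UNC50 changed no count of calls.

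The labels number the libraries, but do not say that a number marks a shared animal. Deviations of same-numbered central and peripheral libraries correlated at -0.14, -0.06 and 0.36, so the numbers were not taken to pair samples. With a replicate block, in a fit of the 2 groups compared, the guidance genes had 6 higher and 3 lower in central retina, and 0 were higher and 0 lower in whole retina. Higher calls lost were EPHA5 (limma adjusted p = 0.13), EPHB6 (0.114), SEMA3C (0.129), SEMA3E (0.0579) and SLIT2 (0.152), and SEMA3G was gained (0.0364). Lower calls lost were EFNB1 (limma adjusted p = 0.0957), PLXNB2 (0.0561) and PLXNC1 (0.0844), and in whole retina EPHA1 (0.204). With the same replicate block, the pathway list had 15 genes higher and 8 lower in central retina, and 0 were higher and 0 lower in whole retina. For whole retina and whole eye the same-numbered libraries correlated at 0.19. Read depth is unknown, and what it limits could not be measured.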
